A study of Mus musculus with 6 samples.

Results

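The genes described here are 10 genes grouped as inhibitory checkpoint receptors of lymphocytes: Pdcd1, Havcr2, Lag3, Tigit, Ctla4, Cd160, Cd244a, Entpd1, Cd200 and Btla. They were taken by gene name from a deposited table of 57180 genes, and all 10 were found in it, each in a single row. RNA came from lymphocytes isolated from tumors of mice bearing Hepa1-6, a mouse hepatoma cell line. All the mice had received, by tail vein, the TREND delivery system with plasmids for CasRx, a CRISPR nuclease that cuts RNA rather than DNA. In the SLC43A2 sgRNA group (3 libraries, genotype label SLC43A2 knockdown) the guide RNA was directed at SLC43A2, which encodes a membrane carrier for methionine and other large neutral amino acids. In the Mock sgRNA group (3 libraries, genotype label Mock) a mock guide took its place. The strain, age and sex of the mice, the dose, the time of harvest and any pooling of animals are not stated in the labels. Nothing in the labels says that the libraries of a group came from separate mice, so the p-values measure the spread between these libraries, which may be technical.

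Inhibitory checkpoint receptors are surface proteins that dampen lymphocyte activation when they meet a ligand on another cell. T cells display most of them after antigen stimulation, and lymphocytes that stay in contact with antigen in tumors often carry several at once, so their RNA is read both after activation and in exhaustion. CTLA-4 competes with the activating receptor CD28 for CD80 and CD86, and PD-1, encoded by Pdcd1, recruits phosphatases that oppose T cell receptor signaling. LAG-3 binds MHC class II, TIGIT competes with CD226 for the poliovirus receptor, and BTLA and CD160 bind the herpesvirus entry mediator, encoded by Tnfrsf14. TIM-3, encoded by Havcr2, binds galectin-9 among other ligands, and 2B4, encoded by Cd244a, binds CD48 and is best known on NK cells. The label is not exact for 2 of the 10 genes: Cd200 encodes a ligand, whose receptor is encoded by Cd200r1, and Entpd1 encodes CD39, an ectoenzyme that breaks down extracellular ATP.

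The values are TPM, transcript levels given as a length-adjusted share of the library, and every library has the same total, so sequencing depth is unknown. The targeted transcript, Slc43a2, measured 3.50, 2.40 and 4.15 TPM in the 3 SLC43A2 sgRNA libraries, against 6.68, 4.18 and 4.79 TPM in the 3 Mock sgRNA libraries, with no overlap. The log2 difference was -0.52 with an SE of 0.23 and was not called (limma, adjusted p = 0.113), and 922 of its exonic bases also lie in exons of Gm45606 on the opposite strand. Of the 15 T cell markers, 2 were called higher, 4 lower and 9 neither. Their summed level was 8955 to 9565 TPM in SLC43A2 sgRNA libraries and 10478 to 11779.8 TPM in Mock sgRNA libraries, without overlap. T cell RNA was thus abundant in both groups, which does not exclude other cells. Among these markers Thy1 changed the most, by -2.11 on the log2 scale (limma adjusted p = 0.00229), with means of 114 TPM in SLC43A2 sgRNA and 492 TPM in Mock sgRNA. Markers of other cells were lower in the SLC43A2 sgRNA libraries: 13 of 13 tested B cell genes, 14 of 15 macrophage and monocyte genes, 9 of 9 NK cell genes, 2 of 4 dendritic cell genes, the 1 tested endothelial gene, Pecam1, which leukocytes also express, and 1 of 2 tested hepatocyte genes. The hepatocyte and hepatoma markers summed to 5.05 to 6.34 TPM in SLC43A2 sgRNA libraries and 17.8 to 36.6 TPM in Mock sgRNA libraries. That difference lay mostly in the transferrin gene Trf, with means of 1.86 TPM in SLC43A2 sgRNA and 21.8 TPM in Mock sgRNA, while Afp was not called and Alb, Ttr and Serpina1a were listed at 0 throughout. The 4 Y-linked genes summed to 1.96 to 2.85 TPM in SLC43A2 sgRNA libraries and 78.5 to 93.3 TPM in Mock sgRNA libraries, so the guide and the sex of the cells cannot be told apart in this design. In bulk RNA, fewer cells of a type and less RNA per cell cannot be told apart either.

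The filter on low values, an average of 1 TPM or more across libraries, removed none of the 10 genes. In SLC43A2 sgRNA libraries Ctla4, Cd200, Lag3 and Btla rose and Cd244a fell, while Pdcd1, Havcr2, Tigit, Cd160 and Entpd1 did not pass the test (limma on log2(TPM + 1), Benjamini-Hochberg adjusted p under 0.05 over 13759 genes). That is 5 of 10 genes called, 4 higher and 1 lower, where 45.1% of all tested genes were called, 22.8% higher and 22.2% lower. The number called is therefore near the background. The groups did not overlap for 6 of the 10 genes, where 57.0% of all tested genes did not overlap. The median log2 difference of the 10 genes was 0.51, against 0.03 for all tested genes. Among genes with a mean of at least 5 TPM, which 7 of the 10 reached, the median of all genes was 0.19 and 51.2% were called. In total the 10 genes held 1258, 1183 and 1213 TPM in SLC43A2 sgRNA replicates 1, 2 and 3, against 429, 447 and 537 TPM in the Mock sgRNA replicates. Without Ctla4 and Cd200, the other 8 genes summed to 281 to 309 TPM in SLC43A2 sgRNA libraries and 195 to 288 TPM in Mock sgRNA libraries, and the 2 ranges overlapped.

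**Figure D1:**
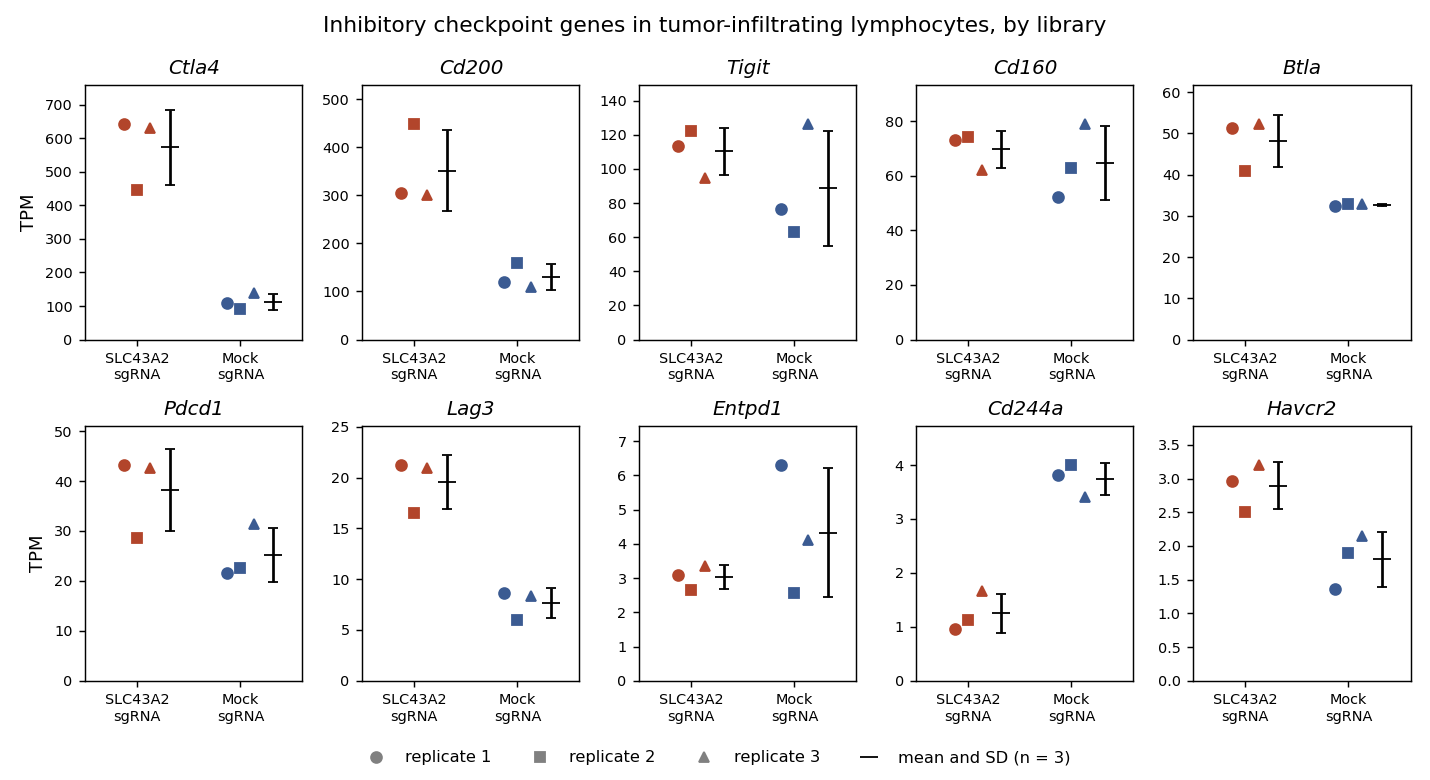
Level of each of the 10 genes in TPM, on a linear axis from 0 in each panel, with 1 point per library and the mean and SD of 3 libraries beside the points. Ctla4, Cd200, Lag3, Btla and Havcr2 lie higher and Cd244a lower in every SLC43A2 sgRNA library than in any Mock sgRNA library, and the groups overlap for the other 4 genes.

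Ctla4, the receptor that takes CD80 and CD86 away from CD28, changed the most of the 10 genes. Its levels were 644, 445 and 631 TPM in SLC43A2 sgRNA replicates 1, 2 and 3, against 108, 91.1 and 139 TPM in the Mock sgRNA replicates. The groups lay far apart, with the lowest SLC43A2 sgRNA library well above the highest Mock sgRNA library. Mean levels were 573 ± 112 TPM in SLC43A2 sgRNA and 113 ± 24.2 TPM in Mock sgRNA (SD, n = 3 each), a 5.09-fold rise (log2 difference 2.34, SE 0.21, limma adjusted p = 0.000329). The difference held rank 78 from the top among the 13759 tested genes. By mean level, Ctla4 moved to rank 332 among all genes of the table in SLC43A2 sgRNA libraries, against rank 1251 in Mock sgRNA libraries. Ctla4 is also abundant in regulatory T cells, and the 9 regulatory T cell markers were split, with 3 higher, 3 lower and 3 not called. Their sums were 1740.2 to 1919.7 TPM in SLC43A2 sgRNA libraries and 398 to 602 TPM in Mock sgRNA libraries, and most of each sum was Tnfrsf18, with means of 1435 TPM in SLC43A2 sgRNA and 342 TPM in Mock sgRNA. Tnfrsf18, which encodes the costimulatory receptor GITR, and the lineage factor Foxp3 were named after their values were seen. Foxp3 averaged 10.4 ± 1.73 TPM in SLC43A2 sgRNA and 14.6 ± 2.59 TPM in Mock sgRNA (log2 difference -0.46, limma adjusted p = 0.0799). Among those markers Ccr8, a chemokine receptor gene, rose by 3.76 and Il2ra, which encodes CD25, by 2.21 on the log2 scale, while the integrin gene Itgae fell by 2.67 and the co-receptor gene Nrp1 by 2.48. The part of regulatory T cells in the rise of Ctla4 was not tested.

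Cd200, the membrane glycoprotein ligand that restrains myeloid cells through CD200R, was the other abundant member that rose. Its levels were 305, 449 and 301 TPM in SLC43A2 sgRNA replicates 1, 2 and 3 and 119, 160 and 110.1 TPM in the Mock sgRNA replicates. Every SLC43A2 sgRNA library exceeded every Mock sgRNA library, and replicate 2 was the highest of its group on both sides. The mean was 352 ± 84.4 TPM in SLC43A2 sgRNA and 129.7 ± 26.8 TPM in Mock sgRNA, a 2.71-fold rise (log2 difference 1.42, SE 0.21, limma adjusted p = 0.00241). B cells and endothelium also make CD200. The B cell markers summed to 27.5 to 28.3 TPM in SLC43A2 sgRNA libraries and 349 to 452 TPM in Mock sgRNA libraries, with 13 of 13 tested genes lower. The endothelial markers summed to 4.67 to 7.94 TPM in SLC43A2 sgRNA libraries and 15.2 to 19.8 TPM in Mock sgRNA libraries. Nearly all of that sum was Pecam1 (means of 6.01 TPM in SLC43A2 sgRNA and 17.0 TPM in Mock sgRNA), and Cdh5, Kdr, Tie1, Tek and Emcn were at or near 0 in both groups. The part of B cells and endothelium in the rise of Cd200 was not tested.

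Lag3, a CD4-like receptor for MHC class II, also rose. It had 21.2, 16.5 and 20.9 TPM in SLC43A2 sgRNA replicates 1, 2 and 3, against 8.59, 5.94 and 8.33 TPM in the Mock sgRNA replicates. In both groups replicate 2 was the lowest library, and the groups did not overlap. The mean level of Lag3 was 19.5 ± 2.66 TPM in SLC43A2 sgRNA and 7.62 ± 1.46 TPM in Mock sgRNA, a 2.56-fold rise (log2 difference 1.26, SE 0.19, limma adjusted p = 0.00237). The calls and directions of Ctla4, Cd200 and Lag3 held under all 18 alternatives tried.

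Btla, an inhibitory receptor that B cells and T cells both carry, rose by a smaller amount. Its levels were 51.4, 40.9 and 52.3 TPM in SLC43A2 sgRNA replicates 1, 2 and 3 and 32.3, 32.8 and 32.9 TPM in the Mock sgRNA replicates. The Mock sgRNA libraries were almost equal, and all 3 SLC43A2 sgRNA libraries stood above them. Mean Btla was 48.2 ± 6.36 TPM in SLC43A2 sgRNA and 32.7 ± 0.311 TPM in Mock sgRNA, a 1.48-fold rise (log2 difference 0.54, SE 0.14, limma adjusted p = 0.0187). The call did not hold when SLC43A2 sgRNA replicate 1 (adjusted p = 0.0742) or SLC43A2 sgRNA replicate 3 (adjusted p = 0.0831) was left out, without Mock sgRNA replicate 1 (adjusted p = 0.0549) and with protein-coding genes alone (adjusted p = 0.0534), and its lowest adjusted p over the alternatives was 0.0037. Btla was higher in libraries in which 13 of 13 tested B cell markers were lower, and the part of B cells in its values was not tested.

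Cd244a, which encodes the CD48 receptor 2B4, was the single member that fell. Its levels were 0.96, 1.13 and 1.66 TPM in SLC43A2 sgRNA replicates 1, 2 and 3 and 3.82, 4 and 3.41 TPM in the Mock sgRNA replicates. All libraries were low, and the groups lay clearly apart. The mean was 1.25 ± 0.365 TPM in SLC43A2 sgRNA and 3.74 ± 0.302 TPM in Mock sgRNA, so the SLC43A2 sgRNA level was 0.334 times the Mock sgRNA level (log2 difference -1.09, SE 0.20, limma adjusted p = 0.00532). With quantile normalization the difference was -0.69 (adjusted p = 0.0232; the range over the alternatives was 0.000219 to 0.0237). NK cells and myeloid cells are known sources of 2B4. The NK cell markers summed to 120.0 to 125 TPM in SLC43A2 sgRNA libraries and 268 to 343 TPM in Mock sgRNA libraries, with Klrc2 changed by -2.07 and Klrd1 by -1.42 on the log2 scale, and none was at 0 in all libraries. The macrophage and monocyte markers summed to 79.6 to 88.3 TPM in SLC43A2 sgRNA libraries and 699 to 845 TPM in Mock sgRNA libraries, with C1qc changed by -3.84 and Lyz2 by -3.63. The part of these cells in the fall of Cd244a was not tested.

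Pdcd1, which encodes PD-1, was not called. It had 43.2, 28.6 and 42.7 TPM in SLC43A2 sgRNA replicates 1, 2 and 3, against 21.5, 22.5 and 31.3 TPM in the Mock sgRNA replicates. SLC43A2 sgRNA replicate 2 lay below Mock sgRNA replicate 3, so the groups overlapped. Mean levels of Pdcd1 were 38.2 ± 8.28 TPM in SLC43A2 sgRNA and 25.1 ± 5.39 TPM in Mock sgRNA (log2 difference 0.58, SE 0.22, 95% interval 0.06 to 1.10, limma adjusted p = 0.0688). Without SLC43A2 sgRNA replicate 2 the difference was 0.77 and passed (adjusted p = 0.0251), and without Mock sgRNA replicate 3 it was 0.74 and passed (adjusted p = 0.0373). Over the 18 alternatives 6 gave a call for Pdcd1, every value was positive, and the adjusted p ranged from 0.0117 to 0.192.

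Havcr2, which encodes TIM-3, was among the lowest members. Its levels were 2.97, 2.51 and 3.20 TPM in SLC43A2 sgRNA replicates 1, 2 and 3 and 1.36, 1.89 and 2.15 TPM in the Mock sgRNA replicates. The groups did not overlap, but the gap between the nearest libraries was small. The means were 2.89 ± 0.351 TPM in SLC43A2 sgRNA and 1.80 ± 0.403 TPM in Mock sgRNA (log2 difference 0.48, SE 0.20, 95% interval 0.01 to 0.95, limma adjusted p = 0.0877). Havcr2 passed in 3 of 17 alternatives, which were quantile normalization (0.89, adjusted p = 0.0162), array weights (0.59, adjusted p = 0.0283) and scaling to T cell receptor transcripts, and the adjusted p ranged up to 0.246. Dendritic cells and macrophages also make TIM-3. The dendritic cell markers summed to 8.67 to 10.3 TPM in SLC43A2 sgRNA libraries and 13.9 to 17.2 TPM in Mock sgRNA libraries, and of the 4 tested Cd209a changed by -1.82 and Siglech by -1.07 on the log2 scale, while Zbtb46 (0.42) and Batf3 (0.25), named after their values were seen, were not called. The part of these cells in the Havcr2 values was not tested.

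Tigit and Cd160 were among the more abundant members and were not called. Tigit, the receptor that competes with CD226, had 113, 122 and 95.0 TPM in SLC43A2 sgRNA replicates 1, 2 and 3, against 76.5, 62.8 and 127 TPM in the Mock sgRNA replicates. Mock sgRNA replicate 3 held the highest value of all 6 libraries, and the groups overlapped. Tigit averaged 110.3 ± 14 TPM in SLC43A2 sgRNA and 88.6 ± 33.5 TPM in Mock sgRNA (log2 difference 0.37, SE 0.26, 95% interval -0.25 to 0.98, limma adjusted p = 0.285). Without Mock sgRNA replicate 3 the Tigit difference was 0.65 and passed (adjusted p = 0.0230), while without Mock sgRNA replicate 2 it was 0.16 (adjusted p = 0.635) and with quantile normalization 0.13 (adjusted p = 0.655). Cd160, a glycolipid-anchored receptor for the herpesvirus entry mediator, had 73.0, 74.2 and 62.0 TPM in SLC43A2 sgRNA libraries and 52.1, 62.7 and 79.0 TPM in Mock sgRNA libraries. Its groups covered much the same range. The log2 difference of Cd160 was 0.12 (SE 0.18, 95% interval -0.30 to 0.54, limma adjusted p = 0.594), and it changed sign with quantile normalization, with protein-coding genes alone and without Mock sgRNA replicate 1.

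Entpd1, the gene of the ectonucleotidase CD39, was low and uneven in the Mock sgRNA group. Its levels were 3.09, 2.66 and 3.34 TPM in SLC43A2 sgRNA replicates 1, 2 and 3 and 6.30, 2.56 and 4.12 TPM in the Mock sgRNA replicates. The Mock sgRNA group held both the highest and the lowest library, and the groups overlapped. Entpd1 averaged 3.03 ± 0.344 TPM in SLC43A2 sgRNA and 4.33 ± 1.88 TPM in Mock sgRNA (log2 difference -0.34, SE 0.28, 95% interval -1.0 to 0.31, limma adjusted p = 0.336). The Entpd1 difference was -0.087 without Mock sgRNA replicate 1, -0.60 without Mock sgRNA replicate 2 and 0.0039 with quantile normalization, and none of these passed. Macrophages and B cells also express CD39, and their markers were lower in SLC43A2 sgRNA libraries, as given above; their part in the Entpd1 values was not tested.

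**Figure D2:**
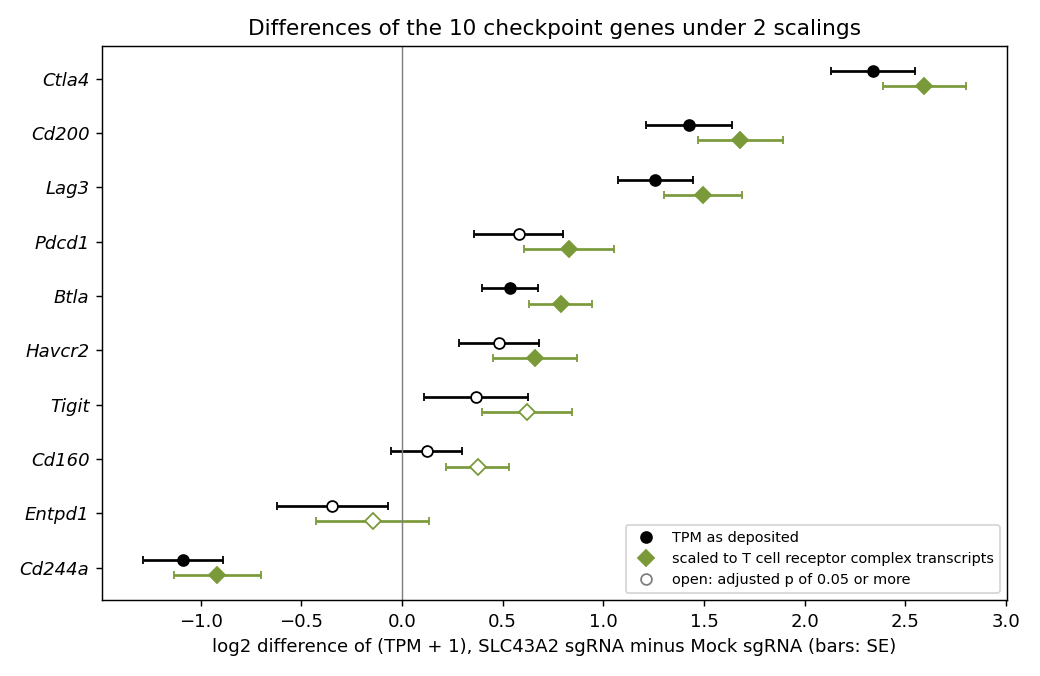
Log2 difference of each gene, SLC43A2 sgRNA minus Mock sgRNA, with its SE, from TPM as deposited (circles) and after scaling to T cell receptor complex transcripts (diamonds); open symbols have an adjusted p of 0.05 or more. Ctla4, Cd200 and Lag3 lie farthest to the right at 2.34, 1.42 and 1.26 as deposited, and Cd244a is the gene farthest to the left at -1.09.

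Since the groups differed in markers of other cells, the genes were also set against 7 transcripts of the T cell receptor complex (Cd3e, Cd3d, Cd3g, Cd247, Trac, Trbc1 and Trbc2). These summed to 6927, 7445 and 6923 TPM in SLC43A2 sgRNA replicates 1, 2 and 3 and to 8326, 8124 and 8993 TPM in the Mock sgRNA replicates, and they did not all move alike, with Cd247 up by 0.63 and Cd3g changed by -1.06. Per 1000 TPM of these transcripts, Ctla4 had 92.9, 59.7 and 91.2 TPM in the SLC43A2 sgRNA group, against 13, 11.2 and 15.4 TPM in the Mock sgRNA group, a ratio of means of 6.15. On the same footing Cd200 averaged 49.3 ± 9.58 TPM in SLC43A2 sgRNA and 15.4 ± 3.87 TPM in Mock sgRNA, and Lag3 2.76 ± 0.479 TPM in SLC43A2 sgRNA and 0.896 ± 0.153 TPM in Mock sgRNA. With this scaling Pdcd1 (log2 difference 0.83, adjusted p = 0.0199) and Havcr2 (0.66, adjusted p = 0.0343) passed as well, which gave 6 genes higher, and Cd244a stayed lower. The scaling moved the median of all genes by 0.22, and relative to the median of all genes under it the differences of Pdcd1 and Havcr2 were 0.58 and 0.42. It also changed the split of all calls, of which 66.7% were higher under it against 50.6% with TPM as deposited; among genes of at least 5 TPM the share was 60.6%.

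The order of levels within a group was read from TPM, which accounts for length. In SLC43A2 sgRNA libraries the order by mean level was Ctla4, Cd200, Tigit, Cd160, Btla, Pdcd1, Lag3, Entpd1, Havcr2 and Cd244a, with overlapping ranges between Ctla4 and Cd200, between Btla and Pdcd1 and between Entpd1 and Havcr2. In Mock sgRNA libraries the order was Cd200, Ctla4, Tigit, Cd160, Btla, Pdcd1, Lag3, Entpd1, Cd244a and Havcr2, and the ranges of the first 4 neighbours overlapped in turn, as did those of Lag3, Entpd1 and Cd244a. The middle of the order, Tigit to Entpd1, was thus the same in both groups, and the ends changed places. Ctla4 made up 51.2%, 37.6% and 52.0% of the summed level of the 10 genes in SLC43A2 sgRNA replicates 1, 2 and 3, against 25.2%, 20.4% and 25.9% in the Mock sgRNA replicates. Cd200 made up 29.0% ± 7.78 in SLC43A2 sgRNA and 28.0% ± 7.69 in Mock sgRNA. Tigit made up 9.07% ± 1.26 in SLC43A2 sgRNA and 18.5% ± 4.79 in Mock sgRNA, and Cd160 5.73% ± 0.586 in SLC43A2 sgRNA and 13.6% ± 1.34 in Mock sgRNA (SD, n = 3 each). SLC43A2 sgRNA replicate 2 differed from the other two of its group in this makeup: it held the lowest Ctla4, Pdcd1, Lag3, Btla, Havcr2 and Entpd1 and the highest Cd200, Tigit and Cd160.

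**Figure D3:**
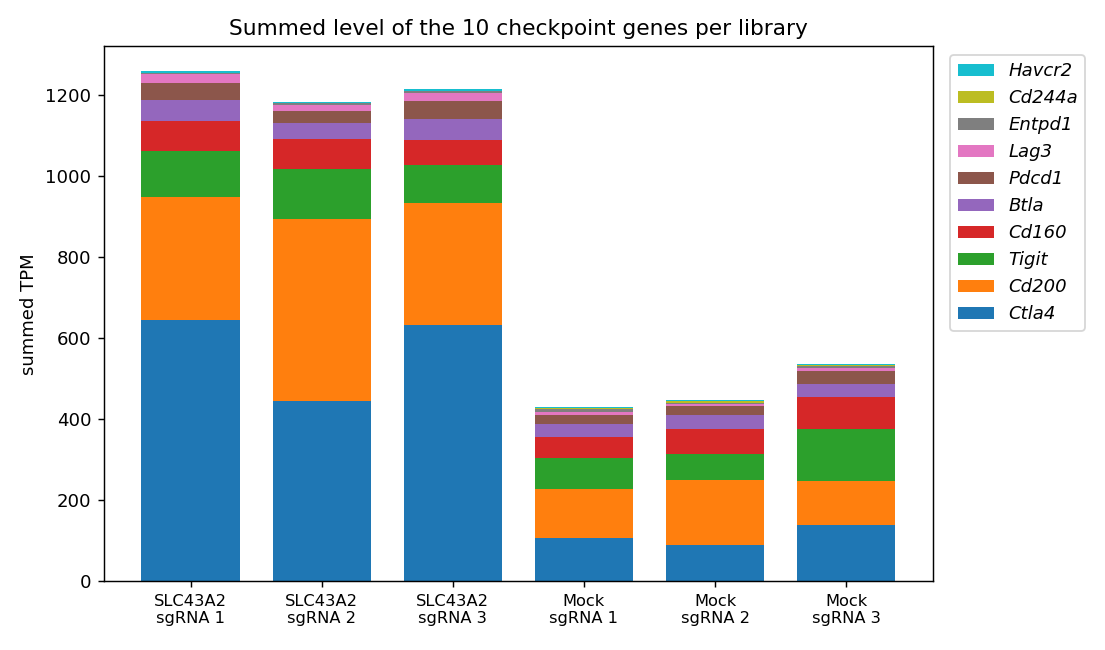
Summed level of the 10 genes in TPM in each library, stacked by gene from the highest mean at the bottom. The SLC43A2 sgRNA libraries reach 1183 to 1258 TPM and the Mock sgRNA libraries 429 to 537 TPM, and most of the difference lies in the Ctla4 and Cd200 segments.

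A receptor that inhibits is often paired with an activating receptor for the same ligands, so the members with such a partner were compared with it library by library. The ratio of Ctla4 to Cd28 was 3.27, 2.64 and 3.38 in SLC43A2 sgRNA replicates 1, 2 and 3 and 0.747, 0.745 and 0.840 in the Mock sgRNA replicates. In SLC43A2 sgRNA libraries Ctla4 RNA thus exceeded Cd28 RNA, and in Mock sgRNA libraries it lay below it. The mean log2 ratio differed by 1.99 (exact two-sided permutation p = 0.1, the smallest that 3 against 3 can give). Cd28 itself averaged 184 ± 14.4 TPM in SLC43A2 sgRNA and 144 ± 21.4 TPM in Mock sgRNA and was not called (log2 difference 0.36, limma adjusted p = 0.0809). The ratio of Tigit to Cd226 was 1.78, 2.33 and 1.77 in SLC43A2 sgRNA replicates and 1.05, 0.882 and 1.56 in Mock sgRNA replicates, again without overlap (difference of mean log2 ratios 0.78, exact two-sided permutation p = 0.1). Both genes entered this ratio: the log2 difference of Tigit was 0.37, not called, and that of Cd226 was -0.41. Cd226 fell to 56.7 ± 6.16 TPM in SLC43A2 sgRNA, against 75.2 ± 5.29 TPM in Mock sgRNA (limma adjusted p = 0.0417). That call was lost in 10 of 18 alternatives (limma adjusted p from 0.0040 to 0.366). Icos, a costimulatory relative of Cd28 and Ctla4, rose beside Ctla4, with 316 ± 18.4 TPM in SLC43A2 sgRNA and 89.3 ± 15.6 TPM in Mock sgRNA (log2 difference 1.83, limma adjusted p = 0.000226). The list of paired activating genes held Cd28, Icos, Cd226 and Tnfsf14. Tnfsf14 encodes a ligand, and Icos does not share its ligand with a member. Of these 4 genes, 1 was higher, 1 lower and 2 not called (median 0.37).

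**Figure D4:**
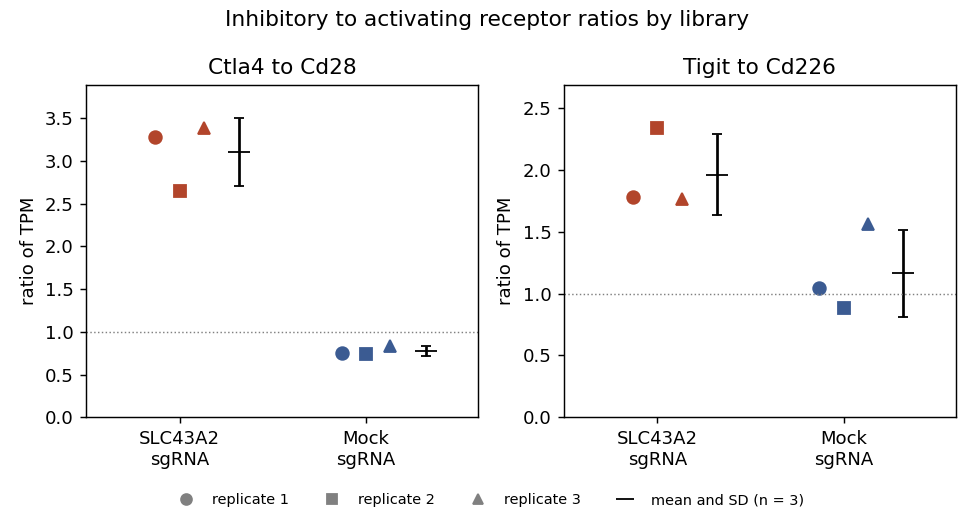
Ratio of Ctla4 to Cd28 and of Tigit to Cd226, in TPM over TPM, with 1 point per library, the mean and SD of 3 libraries, and a dotted line at a ratio of 1. The Ctla4 to Cd28 ratio lies at 2.64 to 3.38 in SLC43A2 sgRNA libraries and at 0.745 to 0.840 in Mock sgRNA libraries.

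The ligands of these receptors were mixed. Of 15 genes for ligands and counter-receptors, 11 were tested, 3 were higher, 4 lower and 4 not called (median log2 difference 0.20). For PD-1, the ligand gene Cd274 rose to 24.9 ± 4.09 TPM in SLC43A2 sgRNA, against 11.1 ± 1.64 TPM in Mock sgRNA (log2 difference 1.09, limma adjusted p = 0.0035), and Pdcd1lg2, not called, had 16.5 TPM in SLC43A2 sgRNA and 12.8 TPM in Mock sgRNA. For CTLA-4 the pair of ligands split: Cd80 rose by 1.72 to 8.76 TPM in SLC43A2 sgRNA, against 1.96 TPM in Mock sgRNA, and Cd86 fell by 1.32 to 5.56 TPM in SLC43A2 sgRNA, against 15.4 TPM in Mock sgRNA. Cd86 is typical of B cells and myeloid cells, whose markers fell in the same libraries, and the part of these cells in the values of Cd80 and Cd86 was not tested. Cd48, the ligand of the protein of Cd244a, fell by 0.56, and Cd200r1, the receptor gene for CD200, fell by 0.90. Lgals3, a galectin gene linked to LAG-3, rose by 0.80, and Ceacam1, linked to TIM-3, fell by 1.72. Fgl1, another LAG-3 ligand gene, was listed at 0 in all libraries. Lgals9 for TIM-3 (237 TPM in SLC43A2 sgRNA, 189.6 TPM in Mock sgRNA), Pvr for TIGIT (11 TPM in SLC43A2 sgRNA, 9.42 TPM in Mock sgRNA) and Tnfrsf14 for BTLA and CD160 (3.18 TPM in SLC43A2 sgRNA, 5.79 TPM in Mock sgRNA) were not called.

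Downstream, the members that carry tyrosine motifs in their tails act through phosphatases and SH2 adaptors. The list for this step also holds other genes, among them Bag6 and the kinase genes Lck, Fyn and Csk. Of its 18 tested genes, 3 were higher, 7 lower and 8 not called (median -0.18). Ptpn6, the gene of the phosphatase SHP-1, rose by 0.92 to 211 ± 36.2 TPM in SLC43A2 sgRNA, against 112 ± 26.5 TPM in Mock sgRNA (limma adjusted p = 0.0118). Ptpn11, the gene of the phosphatase SHP-2, and the adaptor gene Sh2d1a, both named after their values were seen, were called lower. Ptpn11 changed by -0.47 (limma adjusted p = 0.0307), with means of 11.5 TPM in SLC43A2 sgRNA and 16.3 TPM in Mock sgRNA. Sh2d1a changed by -0.64 (limma adjusted p = 0.00805). The T cell adaptor gene Sh2d2a rose by 1.61, while Inpp5d, the gene of the inositol phosphatase SHIP-1, fell by 1.61 and Pag1, whose product holds the kinase Csk at the membrane, fell by 2.35 on the log2 scale. CTLA-4 and PD-1 levels at the surface also depend on transport and turnover. Of 12 genes listed for receptor trafficking and turnover, not all of which act on CTLA-4 or PD-1, 2 were higher, 3 lower and 7 not called (median 0.10). Ap2m1, a subunit of the clathrin adaptor that internalizes CTLA-4, rose by 1.26 and the ubiquitin ligase gene Cblb by 1.5. Trat1, whose product helps carry CTLA-4 to the surface, fell by 1.93 and the ubiquitin ligase gene Marchf1 by 1.37. RNA levels do not measure the receptors at the surface.

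Entpd1 belongs to a different circuit from the immunoglobulin-family receptors above. CD39 and CD73 turn ATP into adenosine, and of 8 genes of the adenosine pathway 4 were higher, 1 lower and 3 not called (median 0.53). Nt5e, the gene of CD73, fell by 0.88, while the groups overlapped for Entpd1. The adenosine receptor gene Adora2b rose by 1.33 and the adenosine kinase gene Adk by 1.09. The other genes called higher, named after their values were seen, were the adenosine deaminase gene Ada (0.79) and the nucleoside transporter gene Slc29a1 (1.06). The list thus joins genes that make adenosine with genes that sense it, carry it or use it up, and its median has no single direction of meaning. Among 20 other inhibitory receptor genes of lymphocytes and myeloid cells, 12 were lower, 2 higher and 6 not called, and their median of -1.15 stood in contrast to the 0.51 of the 10 members. Lilrb4b and Lilrb4a, which are close copies so that reads may be split between them, rose by 1.71 and 1.27. The B cell receptor gene Cd22, itself on the list of B cell markers, fell by 2.32 and the collagen receptor gene Lair1 by 2.26. B cell and myeloid markers were lower in the same libraries, and the part of these cells in the fall of Cd22 and Lair1 was not tested. Cd96, Slamf6, Sit1 and Lax1, named after their values were seen, were also called lower and are on no marker list used here. Cd96 averaged 36.4 TPM in SLC43A2 sgRNA and 70.85 TPM in Mock sgRNA, and Slamf6 45.5 TPM in SLC43A2 sgRNA and 137 TPM in Mock sgRNA. Sit1 changed by -1.40 and Lax1 by -1.91 on the log2 scale. The 10 members as chosen and this wider list of inhibitory receptors therefore showed medians of opposite sign.

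Transcription factors known to act on the checkpoint genes went both ways, with 7 of 20 higher, 8 lower and 5 not called (median -0.04). Bhlhe40 rose by 2.60 and Tbx21, the gene of T-bet, by 2.19. Tox, a factor tied to exhaustion and to expression of PD-1, fell by 1.95 to 5.03 ± 0.615 TPM in SLC43A2 sgRNA, against 22.5 ± 4.71 TPM in Mock sgRNA, and Maf fell by 2.37. Other factors of the list, named after their values were seen, went both ways. Nr4a1 rose by 1.82, Nr4a2 by 1.04, Nr4a3 by 0.93, Irf4 by 1.75 and Bach2 by 0.83. Those called lower were Tox2 (-1.57), Nfatc2 (-1.23), Ikzf2 (-1.15), Id3 (-1.09), Tcf7 (-1.08) and Eomes (-0.50).

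**Figure D5:**
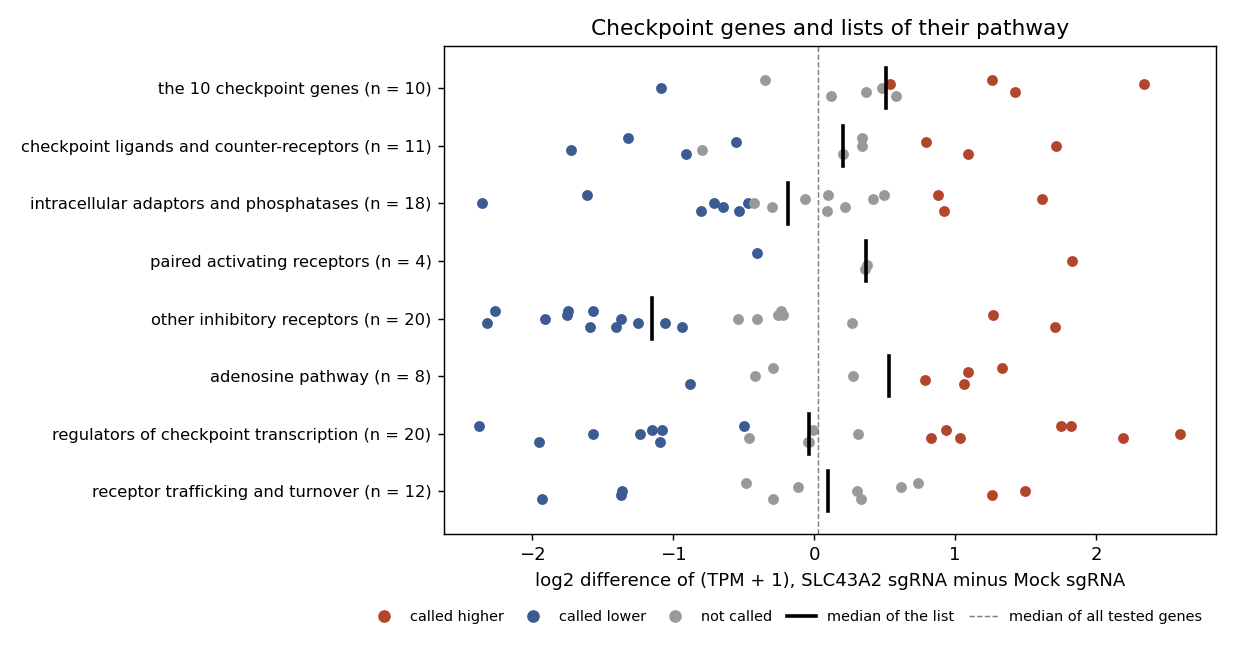
Log2 difference, SLC43A2 sgRNA minus Mock sgRNA, of each tested gene in the 10 checkpoint genes and in 7 lists of their pathway, colored by call, with the median of each list as a bar and the median of all tested genes as a dashed line. The 10 checkpoint genes have a median of 0.51 and the other inhibitory receptors one of -1.15.

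The members lie on 6 chromosomes of GRCm38 (GENCODE M21), an annotation that may differ from the one behind the deposited values. Pdcd1 (94038305 to 94052553), Ctla4 (60887000 to 60915832) and Cd244a (171559193 to 171609746) are on chromosome 1. Tigit (43648867 to 43664146), Btla (45224315 to 45257670) and Cd200 (45382135 to 45409053) are on chromosome 16, where Btla and Cd200, both called higher, lie on opposite strands. Lag3 is on chromosome 6 (124904361 to 124911705), Havcr2 on chromosome 11 (46454935 to 46481255), Cd160 on chromosome 3 (96798763 to 96829351) and Entpd1 on chromosome 19 (40612366 to 40741602). Exons of Cd160 share 68 bases (2.57% of its exonic bases) with Pdzk1 on the opposite strand, which stood at 0 to 0.08 TPM in SLC43A2 sgRNA libraries and 0.05 to 0.18 TPM in Mock sgRNA libraries. No exon of the other 9 members overlaps an exon of another gene in that annotation.

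The promoters of the called members with an entry in RefSeq (GRCm38.p6, 250 bases before to 50 after the start) are shown because these genes changed together or, for Cd244a, the other way. Capitals mark the matches of the motifs searched. Lag3 had no entry, and 9 of the 10 members matched, with 11 promoters. The RefSeq start of Ctla4 lies downstream of the start that GENCODE M21 gives for the gene.
Ctla4, chr1:60908775-60909074, plus strand: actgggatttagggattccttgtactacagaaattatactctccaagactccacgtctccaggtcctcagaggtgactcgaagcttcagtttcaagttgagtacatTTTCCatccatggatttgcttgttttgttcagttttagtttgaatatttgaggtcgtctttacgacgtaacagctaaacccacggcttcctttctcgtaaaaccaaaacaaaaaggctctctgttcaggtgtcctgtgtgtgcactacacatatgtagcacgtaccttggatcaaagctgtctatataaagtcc
Cd200, chr16:45409004-45409303, minus strand: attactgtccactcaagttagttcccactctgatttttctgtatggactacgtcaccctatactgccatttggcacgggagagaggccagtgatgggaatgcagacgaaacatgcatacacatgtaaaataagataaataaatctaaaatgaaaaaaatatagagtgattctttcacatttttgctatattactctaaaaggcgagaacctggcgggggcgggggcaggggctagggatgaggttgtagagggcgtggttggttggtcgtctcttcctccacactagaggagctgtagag
Btla, chr16:45224087-45224386, plus strand: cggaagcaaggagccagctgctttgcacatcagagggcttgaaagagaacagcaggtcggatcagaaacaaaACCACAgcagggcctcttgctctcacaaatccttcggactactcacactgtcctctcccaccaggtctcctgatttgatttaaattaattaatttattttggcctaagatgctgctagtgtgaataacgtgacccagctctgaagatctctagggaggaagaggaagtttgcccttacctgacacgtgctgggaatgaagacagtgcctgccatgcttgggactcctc
Cd244a, chr1:171558943-171559242, plus strand: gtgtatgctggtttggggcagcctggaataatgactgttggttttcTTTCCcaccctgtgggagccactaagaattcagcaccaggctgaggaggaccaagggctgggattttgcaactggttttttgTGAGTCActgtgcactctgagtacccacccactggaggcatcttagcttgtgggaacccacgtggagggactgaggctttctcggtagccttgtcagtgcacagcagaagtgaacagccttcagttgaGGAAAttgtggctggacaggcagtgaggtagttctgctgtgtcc

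Each promoter was searched on both strands for motifs of factors that act in T cells. The core of NFAT (GGAAA) was found in 6 of the 11 member promoters (54.5%), against 61.3% of all 32851 promoters in the table. The RUNX core (TGTGGT) was in 6 of 11 (54.5%), against 16.8% of all. These 6 promoters belong to 5 members, since both promoters of Cd160 are among them. Btla was the only called member with a RUNX match, Lag3 having no entry. The AP-1 motif (TGANTCA) was in 2 of 11 (18.2%), against 7.81%, the TCF motif (CTTTGAA) in 1, against 5.14%, and the STAT motif GAS (TTCNNNGAA) in 1, against 8.30%. No member promoter held the CRE (TGACGTCA), T-box (AGGTGTNA) or NF-kB motif, which 1.79%, 3.03% and 1.20% of all promoters held. The TCF and GAS matches overlap in the second promoter of Cd160. Counted from the start site, Ctla4 had 1 NFAT match at -144, Btla had 1 RUNX match at -178, Cd244a had NFAT matches at -204 and 7 and an AP-1 match at -122, and the Cd200 window held none of these letters. Among members that were not called, Pdcd1 had NFAT matches at -28 and -23, Havcr2 an AP-1 match at -200 and a RUNX match at -46, and Tigit a RUNX match at -140 and NFAT matches at -110 and -13. Cd160, beside its TCF and GAS matches, had a RUNX match in each promoter, at -76 and -101, and an NFAT match at -145. Entpd1 had NFAT matches at -233 and -130 and a RUNX match at 35, all in its second promoter. The called members and those not called therefore both held matches, and a match is a run of letters, not a measured binding site.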

How the data were processed

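RNA sequencing of 6 libraries of tumor-infiltrating lymphocytes was analysed, 3 SLC43A2 sgRNA and 3 Mock sgRNA, grouped and numbered by their titles. The authors deposited gene-level TPM in a single table, every library having the same sum. Bowtie 0.12.2 and mm8 are named, without their role, per the submitters' processing notes; for the counter and annotation no name is given in the sources used here. Per the labels' protocols, the kit was Illumina TruSeq RNA, which does not mark strand; that text speaks of retinas and may not describe these samples. Of the gene identifiers, 90.7% are in GENCODE M21 (GRCm38). TPM keeps no read counts, so no counting error is given.

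Differences were computed with limma 3.58.1 in R 4.3.3 (lmFit, eBayes with trend, two-sided) on log2(TPM + 1) across all 13759 genes with a mean of at least 1 TPM, adjusted by Benjamini-Hochberg over all of them, threshold 0.05. This scale understates the change of low genes. The 95% intervals are from the same fit. The code of the fit was run on simulated data with independent noise and far fewer changed genes than were called here. That run is therefore no check of the calls reported. Folds are ratios of mean TPM. Pairs of receptors were compared by log2 ratio with an exact permutation test. The members, the 16 gene lists and the tests were chosen with earlier results of these data known. Named genes are the members, Slc43a2, the partners Cd28, Icos and Cd226, all tested ligand genes, and up to 4 per list, the called genes that moved most in each direction. Alternatives were other pseudocounts (0.1 and 0.5), filters (none, and 5 TPM), scalings, variance models, a block for replicate number and omission of single libraries; protein-coding genes alone was added after the data were seen. Protein sequences were not used here.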

Additional observations from a re-analysis of the deposited data

How the results depend on the processing

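Over the 18 alternatives of the fit, the 10 genes gave 177 values, since Havcr2, Cd244a and Entpd1 were not tested among genes of at least 5 TPM. Of these, 159 kept direction and side of the threshold, 10 newly passed it, 4 lost it, all for Btla, and 4 changed sign. The sign changes were those of Cd160 with quantile normalization (-0.063), with protein-coding genes alone (-0.027) and without Mock sgRNA replicate 1 (-0.019; leaving out a library gave -0.019 to 0.28), and of Entpd1 with quantile normalization (0.0039); neither was called in any of them, and the cause was not tested. The number of members higher ran from 3 to 6 and was 4 in 7 alternatives. The number lower was 1 in 17 alternatives and 0 among genes of at least 5 TPM, where Cd244a was not tested. Over all genes, that filter gave 1882 lower, against 3060, with fewer genes tested, and leaving out a library gave 1970 (without SLC43A2 sgRNA replicate 3; 1982 without replicate 1) to 3197 all genes higher, against 3139. Quantile normalization moved the median of all genes by 0.11 and the filter at 5 TPM by 0.16. The ratios kept their direction with 1 TPM added and without each library.

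The replicate numbers did not pair the libraries, with correlations of 0.001, 0.06 and -0.03 between the deviations of same-numbered libraries. With the replicate block, 5 members were higher and 1 lower; Pdcd1 passed at 0.58 (limma adjusted p = 0.0462). Of the other 54 named genes, 44 kept direction and side of the threshold throughout and none changed sign. Depth is unknown, so counting error of the lowest members, Cd244a, Havcr2 and Entpd1, is not known.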
